A study of Bos taurus with 3 samples.

Results

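The immediate early genes FOS, FOSB, JUN, JUNB, EGR1, IER2 and DUSP1, together with KLF4 and MYC, were followed in bovine mesenchymal stromal cell cultures of 3 sources: adipose tissue, bone marrow (marrow below) and peripheral blood (blood below). The 9 genes were taken by symbol from the feature lists of the matrices, and all 9 were found among 21861 genes. Their identifiers are ENSBTAG00000004322 (FOS), ENSBTAG00000008182 (FOSB), ENSBTAG00000004037 (JUN), ENSBTAG00000012046 (JUNB), ENSBTAG00000010069 (EGR1), ENSBTAG00000016354 (IER2), ENSBTAG00000013863 (DUSP1), ENSBTAG00000020355 (KLF4) and ENSBTAG00000008409 (MYC). The 3 single-cell libraries, 1 per tissue, came from 1 healthy first-lactation Holstein-Friesian cow, so no tissue had a replicate and every tissue comparison below is a comparison of 2 libraries. All were primary cultures kept in DMEM (low glucose) that held 30% fetal bovine serum, the same in each tissue, and cells were taken when colonies had become visible. The labels name no other treatment, genotype or time.

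Immediate early genes are switched on within minutes of a growth factor, serum or stress signal by transcription factors that are already in the cell, and their RNAs are short-lived. FOS and JUN proteins pair to form the transcription factor AP-1, EGR1 is a zinc-finger factor driven by the MAP kinase and serum response pathways, IER2 is a nuclear regulator induced by the same signals, and DUSP1 is the phosphatase that switches MAP kinases off again. KLF4 and MYC are also inducible transcription factors. KLF4 is tied to growth arrest and differentiation and is induced in macrophages too, MYC drives ribosome production and cell growth, and both belong to the factor set used to reprogram cells to pluripotency.

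The libraries held between 98016815 and 106322567 UMIs (unique molecular identifiers, each standing for 1 captured RNA molecule). Called cells numbered 6088 from adipose tissue, 9281 from marrow and 3192 from blood, with medians of 14391, 9096 and 24884 UMIs per cell in the same order. Stromal markers such as COL1A1 and DCN were present throughout: 13 of 16 reached 50 CPM (UMIs per 1000000 UMIs of the cells summed) in adipose and blood cells and 12 of 16 in marrow cells. Marrow held a cluster of 514 cells and blood a cluster of 156 cells rich in macrophage markers, marrow held 465 more in which macrophage and stromal markers were mixed, and adipose tissue held 39 cells with endothelial markers. These were set apart, which left 6049 adipose, 8302 marrow and 3036 blood cells, called the remaining cells below. The clusters were made without the 9 genes and without 3 lists of related genes. The macrophage markers summed to 18.3 CPM in the remaining adipose cells, 37.0 CPM in the remaining marrow cells and 94.4 CPM in the remaining blood cells. Between 4 and 10 cell barcodes were shared by each pair of libraries.

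JUNB was the most abundant of the 9 genes in every library, and FOSB was close to absent. JUNB, an AP-1 subunit, stood at 184 CPM in adipose cells, 229 CPM in marrow cells and 270 CPM in blood cells, and was above 94.2%, 95.8% and 96.5% of the genes with a UMI in those libraries. JUN, the classical partner of FOS, had 128 CPM in adipose, 208 CPM in marrow and 135 CPM in blood cells. FOS itself was scarce at 8.39 CPM in adipose, 11.6 CPM in marrow and 29.6 CPM in blood cells. Of these AP-1 genes, JUNB and JUN thus held most of the UMIs and FOS few. The chemistry counts 1 tag per RNA molecule, so levels carry no length term. Whether the RNAs of these genes were captured and counted equally well was not tested. FOSB, a close relative of FOS, had 17 UMIs in adipose cells (0.179 CPM), 162 in marrow cells (1.64 CPM) and 62 in blood cells (0.695 CPM).

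EGR1 had 78.8 CPM in adipose, 39.3 CPM in marrow and 90.1 CPM in blood cells. IER2 had 42.6 CPM in adipose, 32.5 CPM in marrow and 30.8 CPM in blood cells. DUSP1 had 80.9 CPM in adipose, 74.6 CPM in marrow and 204 CPM in blood cells. Marrow was thus the low library for EGR1, adipose tissue the high one for IER2, and blood the high one for DUSP1. KLF4 had 33.5 CPM in adipose, 27.3 CPM in marrow and 67.7 CPM in blood cells. MYC had the narrowest range, with 51.0 CPM in adipose, 68.0 CPM in marrow and 55.1 CPM in blood cells. Ordered from high to low, adipose cells ran JUNB, JUN, DUSP1, EGR1, MYC, IER2, KLF4, FOS and FOSB, where the exact 95% Poisson intervals of DUSP1 and EGR1 overlapped (79.1 to 82.8 CPM and 77.0 to 80.6 CPM). Marrow cells ran JUNB, JUN, DUSP1, MYC, EGR1, IER2, KLF4, FOS and FOSB, with no overlap between neighbours. Blood cells ran JUNB, DUSP1, JUN, EGR1, KLF4, MYC, IER2, FOS and FOSB, with IER2 and FOS overlapping (29.6 to 32.0 CPM and 28.5 to 30.7 CPM). These intervals, like all intervals below, cover counting error only and say nothing of the spread between animals or cultures.

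**Figure D1:**
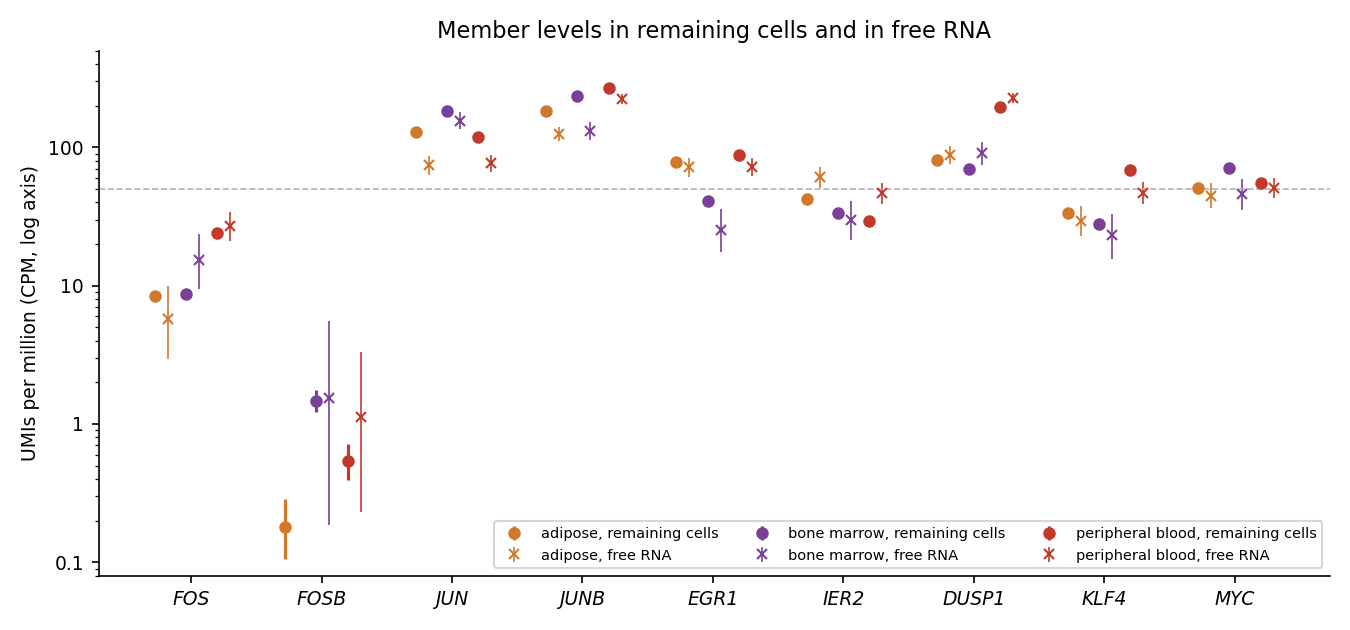
Level of each gene in the remaining cells (dots) and in free RNA (crosses) of the adipose, marrow and peripheral blood libraries, in CPM on a log axis, with exact 95% Poisson intervals; the dashed line marks 50 CPM, and free FOSB RNA in adipose tissue (0 UMIs) is not drawn. JUNB and JUN lie highest, FOS and FOSB lowest, and the blood dots stand apart for FOS, DUSP1 and KLF4.

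The tissue comparison asks how the source of the culture goes with these levels. A gene was called apart when its CPM differed at least 2-fold and reached 50 CPM in the higher library. EGR1, the only one of the 9 called apart between adipose tissue and marrow, was 2.01-fold higher in adipose (95% interval 1.93 to 2.09). By the same rule 6.9% of 3174 genes were apart in that pair, 2.55% higher in adipose tissue and 4.35% higher in marrow. The call sat on the threshold, and in the remaining cells, where 6.08% of genes were apart, the ratio was 1.93 (78.9 CPM in adipose against 41.0 CPM in marrow). Among non-cycling clusters alone it was 2.21 (2.07 to 2.37). JUN was 1.62-fold lower in adipose tissue than in marrow (1.59 to 1.66), and 1.43-fold lower in the remaining cells. FOSB was 9.15-fold lower in adipose (5.54 to 16.1), on 17 against 162 UMIs, which is under the 50 CPM limit in both libraries.

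DUSP1 and KLF4 were called apart between adipose tissue and blood, both lower in adipose. DUSP1 was 2.52-fold lower in adipose cells than in blood cells (2.45 to 2.59) and KLF4 2.02-fold lower (1.94 to 2.11), where 5.03% of 3161 genes were apart, 3.83% lower in adipose. Both stayed past 2-fold in the remaining cells, where 5.04% of genes were apart, at 2.40-fold for DUSP1 (81.1 CPM in adipose against 195 CPM in blood) and 2.05-fold for KLF4 (33.6 against 68.8 CPM). Among non-cycling clusters alone the DUSP1 call was lost, at a log2 ratio of -0.82, and with every barcode of at least 1000 UMIs counted as a cell KLF4 fell just short, at a log2 ratio of -0.99. FOS was 3.52-fold lower in adipose than in blood (3.25 to 3.82) but did not reach 50 CPM in either. JUN had a ratio of 0.954 over all kept cells, against 1.08 with the macrophage-marker, mixed and endothelial-marker cells left out, so its direction depended on whether those cells were counted.

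EGR1, DUSP1 and KLF4 were called apart between marrow and blood, all lower in marrow, where 7.76% of 3131 genes were apart, 3.9% lower in marrow and 3.86% higher. EGR1 was 2.29-fold lower in marrow cells (2.21 to 2.38), DUSP1 2.73-fold lower (2.66 to 2.81) and KLF4 2.48-fold lower (2.37 to 2.60). In the remaining cells, where 7.34% of genes were apart, EGR1 was 2.14-fold, DUSP1 2.82-fold and KLF4 2.48-fold lower. FOS was 2.55-fold lower in marrow (2.38 to 2.73), below the 50 CPM limit. JUN ran the other way and was 1.55-fold higher in marrow (1.51 to 1.58), as was MYC at 1.24-fold (1.19 to 1.28). The comparisons share libraries, so the high blood values of DUSP1 and KLF4 in both are 1 observation. The median of all genes tested lay at a log2 ratio of 0.10 for adipose over marrow, 0.13 for adipose over blood and 0.02 for marrow over blood. Over the 9 genes the median log2 ratio was -0.32, -0.56 and -0.24 in the same order over all kept cells. In the remaining cells it was -0.06, -0.54 and -0.19, beside 0.07, 0.13 and 0.04 over all genes tested. The medians over the 9 include genes under 50 CPM, which the medians of all genes leave out, so they are not like measures. The -0.06 is FOS itself, at 8.40 against 8.77 CPM. Of the 5 genes at 50 CPM in that pair, JUN (-0.52), MYC (-0.48) and JUNB (-0.36) were lower in adipose tissue. DUSP1 (0.23) and EGR1 (0.95) were higher there.

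**Figure D2:**
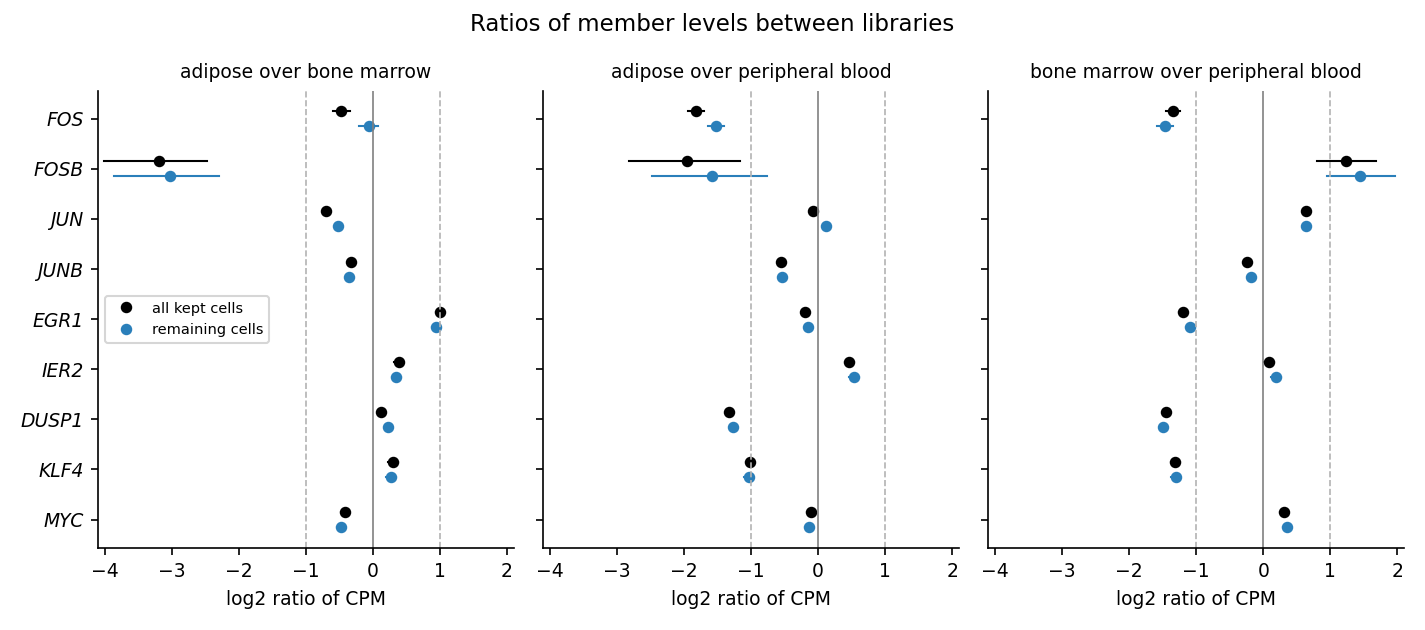
Log2 ratio of CPM of each gene in the 3 pairs of libraries, for all kept cells (black) and for the remaining cells (blue), with exact 95% intervals from the UMI counts; dashed lines mark 2-fold. DUSP1 and KLF4 lie left of the line against blood in both pairs, while JUN and MYC lie to the right of 0 for marrow over blood.

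Within marrow and blood, FOS and JUN were higher in cells with macrophage markers than in the rest. In marrow, the cluster rich in macrophage markers had 67.4 CPM of FOS against 8.77 CPM in the remaining cells, a 7.69-fold difference. It had 607 CPM of JUN against 184 CPM (3.31-fold higher) and 152 CPM of DUSP1 against 69.3 CPM (2.20-fold higher). JUNB was 2.26-fold lower there at 104 CPM against 235 CPM, and MYC 3.60-fold lower at 19.7 CPM against 70.8 CPM. By the 2-fold rule 3 of the 9 genes were higher and 2 lower, where 17.9% of all genes tested were higher and 39.9% lower. EGR1 had 10.7 CPM against 41.0 CPM and IER2 14.2 CPM against 33.4 CPM, both under the 50 CPM limit and so not called. The 465 mixed cells lay between, with 18.9 CPM of FOS and 313 CPM of JUN.

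This cluster is called by its markers and not by a cell type. Its 10 leading genes held 2 macrophage markers and 3 of the neutrophil list (S100A8, S100A9 and S100A12). CSF3R and CXCR2, which define neutrophils, were listed at 0 in all cells of every library, and whether the counting could detect them was not tested. The macrophage markers summed to 16214 CPM in it and the stromal markers to 3237 CPM. The blood cluster had 4413 CPM of macrophage markers but also 15939 CPM of stromal markers, beside the 21387 CPM of the remaining blood cells. It had 142 CPM of FOS against 24.1 CPM in the remaining blood cells (5.88-fold higher), 471 CPM of JUN against 118 CPM (3.98-fold) and 61.0 CPM of IER2 against 29.3 CPM (2.08-fold), and no gene of the 9 was called lower. Of all genes tested there, 7.54% were higher and 0.0942% lower. Doublets were not removed, and their part in this cluster was not tested.

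To set the stromal RNA aside, cells were therefore also taken by rule: those with at least 1% of their UMIs from the 16 macrophage markers, 511 in marrow, 62 in blood and 0 in adipose tissue. The rule was added after the data were seen and cuts a range, with 98 marrow and 18 blood cells between 0.8% and 1.2%. In the 62 blood cells, whose macrophage markers summed to 13459 CPM and stromal markers to 4201 CPM, FOS reached 401 CPM against 24.1 CPM in the remaining blood cells (16.6-fold, 14.6 to 18.9). JUN reached 1051 CPM against 118 CPM (8.88-fold), IER2 122 CPM against 29.3 CPM (4.16-fold), DUSP1 622 CPM against 195 CPM (3.19-fold) and EGR1 253 CPM against 87.6 CPM (2.88-fold). KLF4 was lower, at 13.2 CPM against 68.8 CPM (5.20-fold, on 9 UMIs). In these blood cells 5 of the 9 genes were called higher and 1 lower, where 21% of 3644 genes were higher and 26.6% lower. The difference was spread over many cells: after each cell was thinned to 3000 UMIs, 61.3% of the 62 cells had a FOS UMI (exact 95% interval 48.1% to 73.4%), 87.1% a JUN UMI and 51.6% an EGR1 UMI, against 5.67%, 24.5% and 20.8% of the remaining blood cells.

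The cells that the 1% rule took from marrow and from blood differed in these genes, and they need not be 1 cell type: neutrophil-list markers summed to 27436 CPM in the marrow cells, above their 16141 CPM of macrophage markers, and to 6298 CPM in the blood cells, below their 13459 CPM. In the 511 marrow cells, FOS had 66.6 CPM against 401 CPM in the 62 blood cells, 6.03-fold lower (5.04 to 7.20). EGR1 had 12.2 CPM against 253 CPM (20.7-fold lower, 14.8 to 29.7) and IER2 14.4 CPM against 122 CPM (8.44-fold lower). DUSP1 had 155 CPM against 622 CPM (4.02-fold lower) and JUNB 107 CPM against 410 CPM (3.84-fold lower). JUN was 1.75-fold lower at 602 CPM against 1051 CPM, short of the 2-fold rule, and KLF4 and MYC were under 50 CPM in both. Called lower in marrow were 5 of the 9 genes, where 11.3% of 2938 genes were lower in marrow and 4.56% higher. The cells came from clusters with different leading genes, and the part of the neutrophil-list markers in the difference was not tested.

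Barcodes between 1000 UMIs and the cell threshold, which were not counted as cells, showed the same order of marrow and blood for FOS, JUN and EGR1. The threshold was 4414 UMIs in marrow and 7489 UMIs in blood, so the barcodes below it were not of like depth. Their median was 3151 UMIs in marrow and 4893.5 UMIs in blood, the latter above the marrow threshold. Among 681 such marrow barcodes with at least 1% macrophage-marker UMIs, FOS had 81.2 CPM, JUN 773 CPM and EGR1 29.8 CPM. Among 215 such blood barcodes, FOS had 439 CPM, JUN 1298 CPM and EGR1 268 CPM. FOS was thus 5.41-fold lower and EGR1 8.98-fold lower in the marrow barcodes, where 7.07% of 2872 genes were lower in marrow and 3.34% higher. In adipose tissue the 291 barcodes below the threshold with under 1% macrophage-marker UMIs (13 of the 16 markers at 0) had 518 CPM of JUN against 128 CPM in the remaining cells (4.03-fold, 3.62 to 4.48), 235 CPM of DUSP1 against 81.1 CPM (2.89-fold) and 69.7 CPM of KLF4 against 33.6 CPM (2.08-fold). These were 3 calls among the 9 genes, where 1.4% of 3066 genes were called higher and 0.196% lower. JUNB did not share this, with 176 CPM against 183 CPM. The 736 marrow barcodes of the same kind had 207 CPM of JUN against 184 CPM and 70.8 CPM of DUSP1 against 69.3 CPM, with no gene of the 9 called, where 1.67% of 3001 genes were higher and 0% lower. Over all barcodes below the threshold, those with at least 1% macrophage-marker UMIs included, the median mitochondrial share was 1.98% in adipose tissue, 2.43% in marrow and 1.03% in blood. Its part in these levels was not tested.

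**Figure D3:**
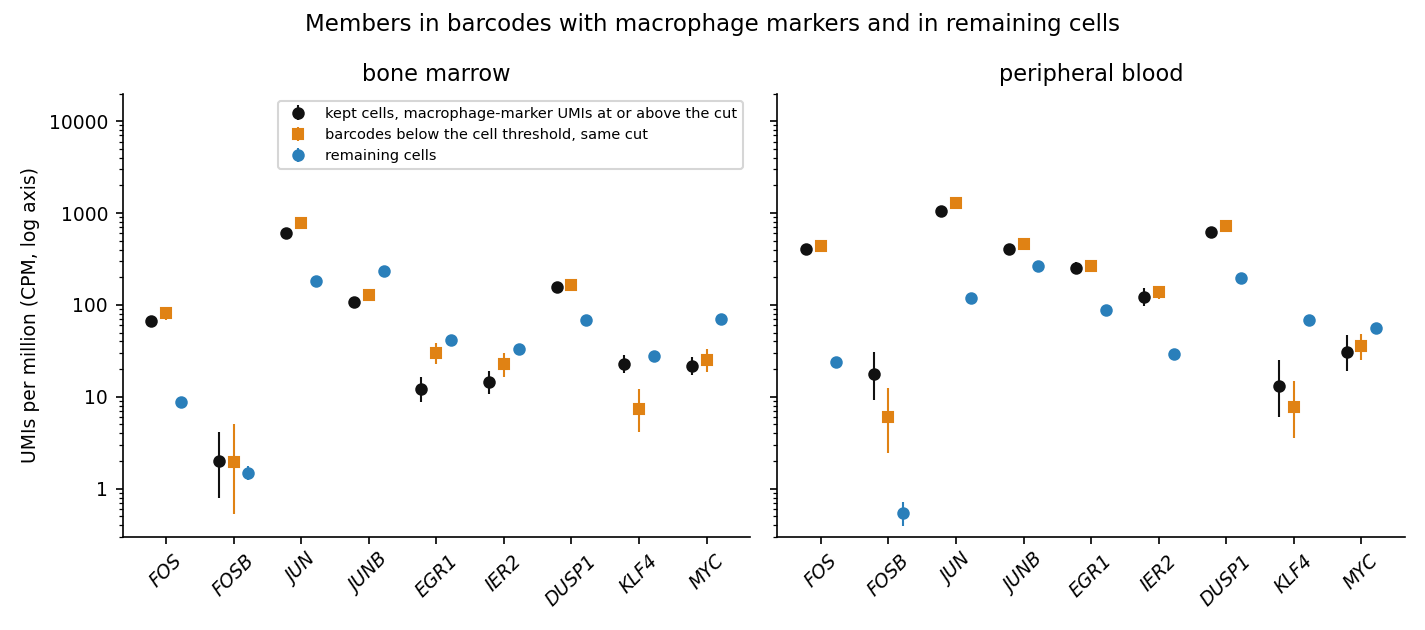
Level of each gene in kept cells with at least 1% macrophage-marker UMIs (black), in barcodes below the cell threshold by the same rule (orange) and in the remaining cells (blue), in CPM on a log axis, with exact 95% Poisson intervals, for marrow (left) and peripheral blood (right). FOS and JUN are above the remaining cells in both libraries, EGR1 and IER2 are below them in marrow and above them in blood, and KLF4 is below them in blood.

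The macrophage-marker cells also set part of the library totals of FOS and JUN. Their cluster held 3.50% of all UMIs in marrow cells and 4.61% in blood cells. It held 20.3% of the FOS UMIs and 10.2% of the JUN UMIs in marrow, and 22.1% of the FOS and 16.1% of the JUN UMIs in blood. Its share of MYC was 1.01% in marrow and 3.73% in blood. Without these and the mixed cells, FOS stood at 8.77 CPM in marrow, next to 8.40 CPM in adipose cells (1.04-fold lower in adipose, 0.944 to 1.15), and at 24.1 CPM in blood.

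Free RNA, read from barcodes of 10 to 100 UMIs, gives UMIs to cells that do not express a gene, and no cell class of these libraries is known to lack these genes and could serve as a blank. JUN was above it, with 128 CPM in remaining adipose cells against 74.5 CPM in free RNA, 184 against 156 CPM in marrow and 118 against 76.8 CPM in blood. DUSP1 was not, with 81.1 CPM in cells against 87.9 CPM free in adipose tissue, 69.3 against 90.8 CPM in marrow and 195 against 229 CPM in blood. IER2 was lower in cells than in free RNA in adipose tissue, at 42.6 against 60.7 CPM, and in blood, at 29.3 against 46.7 CPM. JUNB lay above it, with 183 CPM in cells against 125 CPM free in adipose tissue, 235 against 132 CPM in marrow and 268 against 223 CPM in blood. FOS had 8.40 CPM in cells against 5.73 CPM free in adipose tissue, 8.77 against 15.4 CPM in marrow and 24.1 against 27.1 CPM in blood. EGR1 had 78.9 against 71.6 CPM in adipose tissue, 41.0 against 25.4 CPM in marrow and 87.6 against 72.2 CPM in blood. KLF4 had 33.6 against 29.6 CPM, 27.8 against 23.1 CPM and 68.8 against 47.0 CPM in the same order, and MYC 50.7 against 44.9 CPM, 70.8 against 46.2 CPM and 55.6 against 51.2 CPM. FOSB had 0, 2 and 3 free UMIs. Free RNA thus held UMIs of every gene, FOSB in adipose tissue excepted, and the shares of cells given next hold an unknown part of it for all 9 genes.

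The share of cells with a UMI followed the levels. With each cell thinned to 3000 UMIs, JUNB was seen in 38.6% of remaining adipose cells, 44.2% of marrow cells and 50.6% of blood cells; unthinned, these shares were 81.4%, 77.1% and 94.99%. DUSP1 was seen in 19.97% of adipose, 17.7% of marrow and 41.4% of blood cells (39.6% to 43.1%), and KLF4 in 9.56%, 7.504% and 18.2% (16.8% to 19.6%) in the same order. Unthinned, DUSP1 was in 54.5%, 42.3% and 89.1% of cells and KLF4 in 33.6%, 21.6% and 69.4%. The blood cells kept the highest share of both at equal depth. EGR1 was seen in 19.2% of adipose, 10.4% of marrow and 20.8% of blood cells, MYC in 13.3%, 18.7% and 14.8%, and JUN in 27.6%, 37.2% and 24.5%. FOS was seen in 2.12% of adipose, 2.41% of marrow and 5.67% of blood cells, and FOSB in 0.0496%, 0.422% and 0.165%. Most cells had few of the genes at this depth: 21.4% of adipose, 18.3% of marrow and 11.3% of blood cells had none, and the most seen in 1 cell was 6, 6 and 7 of the 9.

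Among the clusters of at least 100 remaining cells, KLF4 in marrow, FOS in adipose tissue and blood, and DUSP1 in blood each differed over 3-fold, as did FOSB, on few UMIs, in adipose tissue and blood. KLF4 had 45.1 CPM in the marrow cluster led by CLU, OMD and SERPINF1, and 8.06 CPM in the one led by IGFBP5 and TINAGL1, a 5.60-fold range. It was also low, at 9.81 CPM, in the marrow cluster led by BAMBI, EDNRA and BMP2. DUSP1 had 261 CPM in the blood cluster led by ASPN, SST and IL6 (and an unnamed gene), and 82.8 CPM in the S-phase cluster, a 3.15-fold range. FOS was highest in the same blood cluster at 32.5 CPM and lowest in the S-phase cluster at 9.21 CPM, a 3.53-fold range. In adipose tissue it was highest, at 12.3 CPM, in the cluster led by ASPN, SFRP2 and ACTA2, and lowest, at 2.99 CPM, in the mitotic cluster led by CCNB1. JUN and JUNB had opposite extremes in blood: the cluster led by ANKRD1 and FST had 165 CPM of JUN and 154 CPM of JUNB, and the ASPN and SST cluster had 89.0 CPM of JUN and 325 CPM of JUNB. MYC ran from 33.5 CPM in the CCNB1-led mitotic cluster to 56.1 CPM in the S-phase cluster of adipose tissue (1.67-fold), from 62.4 to 76.5 CPM over the marrow clusters (1.23-fold) and from 46.9 to 62.1 CPM over the blood clusters (1.32-fold). The intervals of the lowest and highest cluster did not overlap in any library.

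**Figure D4:**
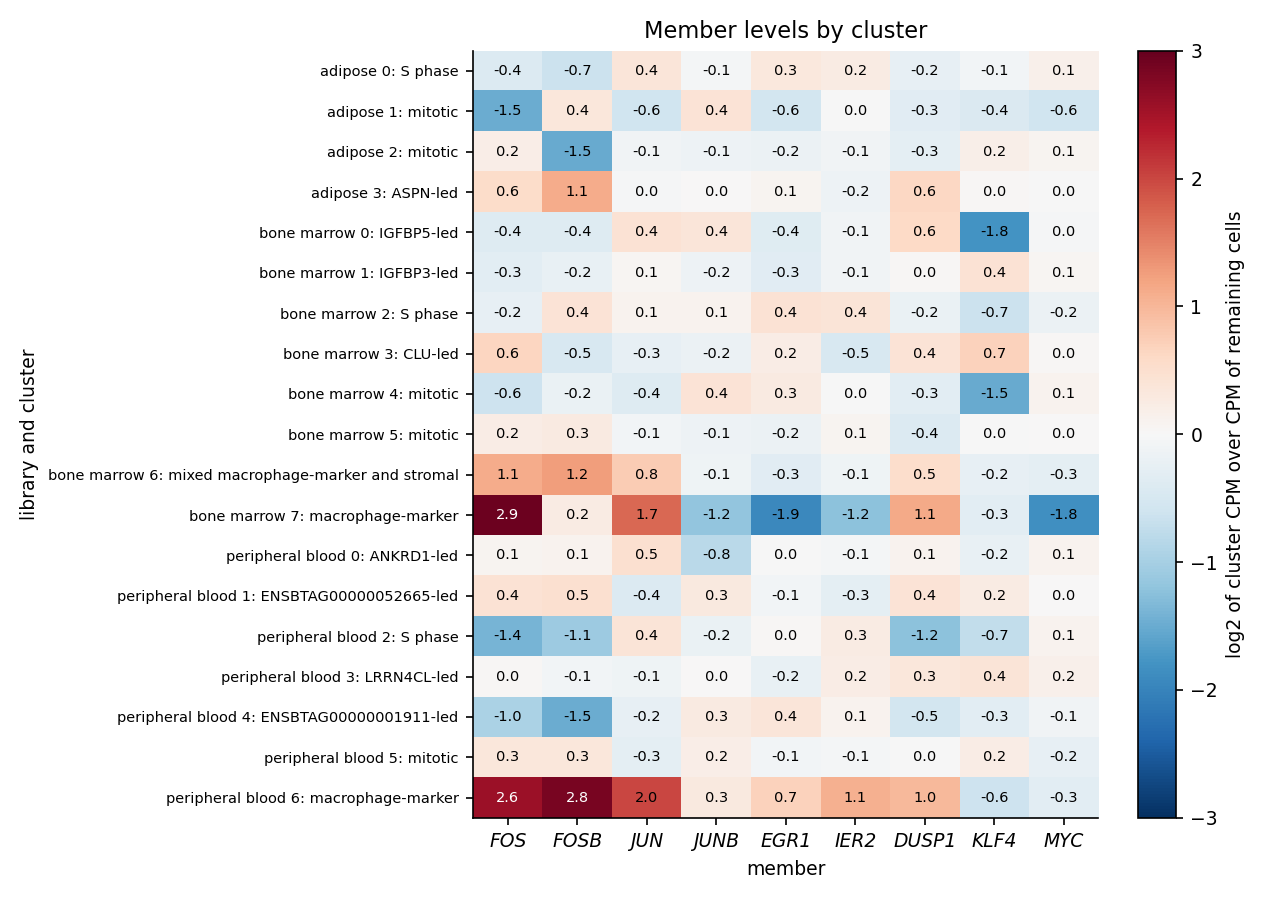
Log2 of each gene's CPM in a cluster over its CPM in the remaining cells of that library, for the clusters of at least 100 cells, named by library, cluster number and class or leading gene. The macrophage-marker clusters stand apart, at 607 CPM of JUN in marrow and 471 CPM in blood, and KLF4 varies most among the other marrow clusters.

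Summed over clusters, DUSP1 was lower in S-phase clusters than in non-cycling ones in all 3 libraries. It had 68.7 CPM in S-phase clusters against 124 CPM in non-cycling clusters of adipose tissue (ratio 0.553, 0.521 to 0.587), 60.5 against 83.6 CPM in marrow (0.723) and 82.8 against 219 CPM in blood (0.378). The blood S-phase class is a single cluster, led by MEOX1, ALDH1A1 and IGFBP5, with 4 S-phase markers among its 50 leading genes, against 9 in the adipose and 8 in the marrow S-phase cluster. The blood difference was the only S-phase call among the 9 genes in any library; of all genes tested, 0.549% were higher and 2.13% lower in blood, 0.661% and 0.331% in marrow, and 1.99% and 1.54% in adipose tissue. In the mitotic clusters DUSP1 ratios were 0.532 in adipose tissue, 0.631 in marrow and 0.884 in blood. In blood the mitotic cluster, at 194 CPM, was above the non-cycling cluster led by CXCL2 and CA4, at 134 CPM. The mitotic class of marrow includes the cluster led by BAMBI, which had 3 mitotic markers among its 50 leading genes. By the same sums JUN was higher in S-phase clusters than in non-cycling ones. The ratios were 1.32 in adipose tissue, 1.05 in marrow and 1.32 in blood. In mitotic clusters JUN was lower, at 0.880, 0.871 and 0.814. This order did not hold cluster by cluster in marrow and blood. A non-cycling cluster had the most JUN there, at 248 CPM in marrow and 165 CPM in blood, above the S-phase cluster. The mitotic cluster led by TOP2A was above a non-cycling cluster in both. IER2 was 1.33-fold, 1.52-fold and 1.23-fold higher in S-phase clusters in the same order. The fraction of remaining cells in S-phase or mitotic clusters differed by library: 1491 of 6049 adipose cells, 4224 of 8302 marrow cells and 1992 of 3036 blood cells were non-cycling.

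A pair of genes is co-detected when a cell has a UMI of both, and the ratio of that share to the product of the single shares is 1 where the pair is seen independently. Over the pairs with at least 5 cells in the product, the median ratio was 1.07 in adipose tissue (28 of 36 pairs), 1.08 in marrow (32 pairs) and 1.08 in blood (28 pairs). Paired with the genes of at least 50 CPM outside the set (2864 to 2938 per library), the 8 genes other than FOSB had median ratios of 0.989 to 1.00. Cells with 5 or more of the 9 genes made up 0.628% of adipose, 0.675% of marrow and 1.68% of blood cells, against 0.402%, 0.376% and 1.29% from the products. The genes thus shared cells a little more often than the products give.

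EGR1 with IER2 had like ratios in the 3 libraries, 1.25 in adipose (172 cells), 1.26 in marrow (102 cells) and 1.26 in blood (70 cells, 0.984 to 1.59), where EGR1 with other genes ran from 0.927 to 1.09 in adipose tissue, 0.910 to 1.11 in marrow and 0.898 to 1.10 in blood (5th to 95th percentile). FOS with EGR1 reached 1.91 in adipose (47 cells, 1.41 to 2.54), 1.58 in marrow (33 cells, 1.09 to 2.22) and 1.37 in blood (49 cells, 1.01 to 1.80). FOS with DUSP1 was at 1.49 (1.05 to 2.04), 1.41 (1.05 to 1.86) and 1.25 (1.01 to 1.53) in the same order. FOS with JUN was at 1.27 (0.929 to 1.70), 1.25 (1.01 to 1.53) and 1.28 (0.963 to 1.66), with intervals that hold 1 in adipose tissue and blood. FOS with other genes ran from 0.747 to 1.25 in adipose tissue, 0.787 to 1.199 in marrow and 0.767 to 1.21 in blood (5th to 95th percentile), a wider span than that of EGR1. At 6000 UMIs per cell FOS with EGR1 was at 1.66, 1.44 and 1.22, and FOS with JUN at 1.12, 1.06 and 1.07, all below their ratios at 3000 UMIs. FOS with IER2 was at 1.38 (21 cells, 0.855 to 2.11), 1.45 (27 cells, 0.955 to 2.11) and 0.727 (11 cells, 0.363 to 1.30). All of these intervals hold 1. At 6000 UMIs the pair was at 1.02, 1.14 and 1.13, so the lower blood ratio did not hold at that depth. JUN with JUNB, the commonest pair, was at 1.00 in adipose (645 cells), 0.975 in marrow (1330 cells) and 0.920 in blood (347 cells). EGR1 with KLF4 was at 0.947, 1.08 and 0.888. FOS was at 1.09, 0.906 and 1.16 with JUNB, and at 0.818, 0.999 and 1.18 with KLF4. With MYC it was at 0.882, 0.775 and 1.14, and the intervals of these FOS pairs hold 1 in every library. JUN with MYC was at 1.15 (1.01 to 1.29), 1.10 (1.02 to 1.19) and 1.29 (1.09 to 1.52). Cells of 1 library share its free RNA and depth, and Pearson correlations of the thinned log counts were weak in every pair, from -0.0562 for JUN with JUNB in blood to 0.0671 for JUN with MYC in blood.

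**Figure D5:**
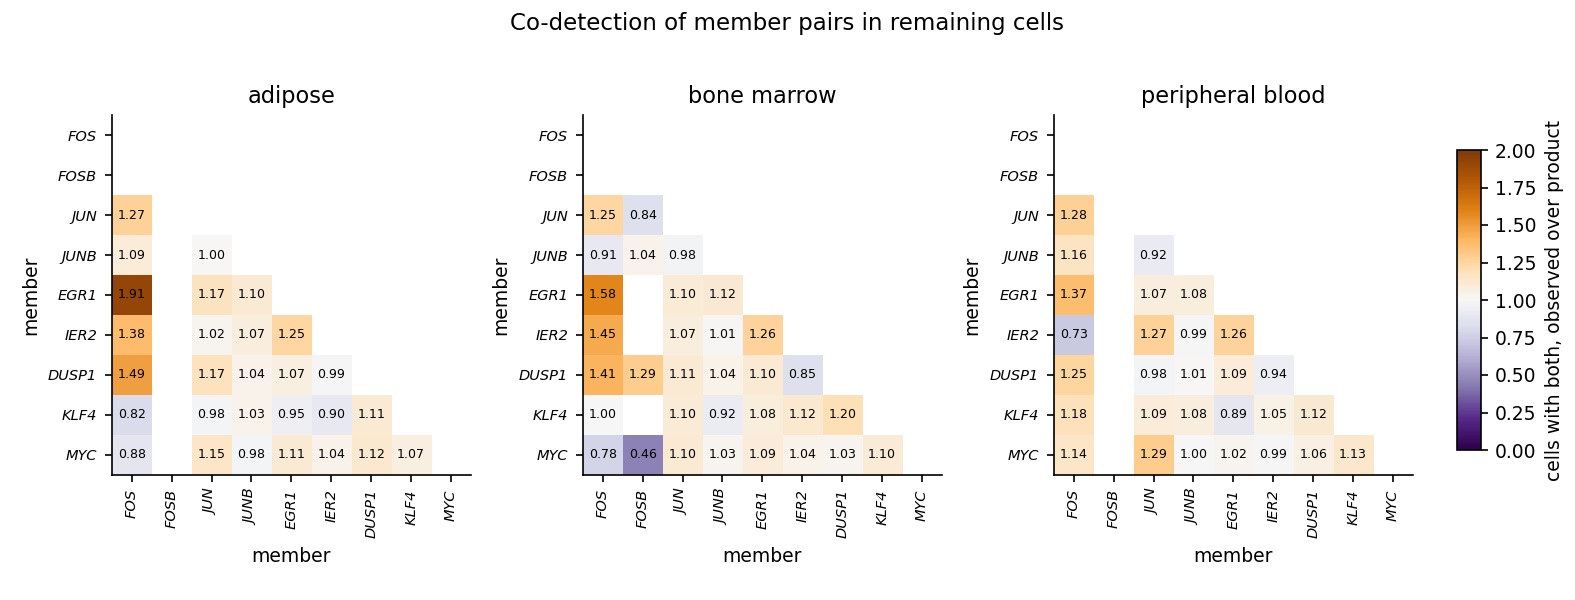
Co-detection ratio of each pair of the 9 genes in the remaining cells of adipose tissue, marrow and peripheral blood, each cell thinned to 3000 UMIs; pairs with fewer than 5 cells in the product are blank. The FOS column and the EGR1 and IER2 pair lie above 1 in most squares, with FOS and EGR1 from 1.37 to 1.91, while JUN and JUNB lie between 0.920 and 1.00.

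Seen 1 gene at a time, most of the 9 were more uneven over cells than most genes of like level. FOSB in adipose tissue and blood was the exception, on 3 and 5 cells with a UMI, and IER2 in blood lay nearer the middle of like genes. The variance over the mean of thinned UMIs is near 1 where molecules fall on cells at random. EGR1 had 1.28 in adipose, 1.36 in marrow and 1.31 in blood cells, above 99.2%, 99.7% and 97.5% of genes with a mean within 0.8 to 1.25 times its own. FOS had 1.18, 1.11 and 1.32 and was above 99.4%, 98.7% and 99.9% of such genes. JUN had 1.41, 1.34 and 1.45. IER2 in blood had 1.02 and was above 60.6% of like genes, and FOSB was above 0% in adipose tissue, 91.5% in marrow and 26.3% in blood. EGR1 was higher in cells with a higher mitochondrial share: with the remaining cells split by that share into 3 equal groups, the high group had 97.0 CPM against 63.0 CPM in the low group in adipose tissue, 47.7 against 33.4 CPM in marrow and 93.1 against 81.4 CPM in blood.

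The genes most like each member over cells were taken as those with the largest lowest Pearson correlation over the 3 libraries, among 4738 genes of at least 20 CPM in each. CCN1, a secreted matrix-associated protein and itself an immediate early gene, came first for FOS, JUN, EGR1 and MYC. Its correlation with JUN was 0.136 in adipose, 0.131 in marrow and 0.110 in blood cells, and with FOS 0.0417, 0.0462 and 0.0535. CCN2, its close relative, came first for DUSP1 at 0.116, 0.0755 and 0.153, and ID1, an inhibitor of basic helix-loop-helix factors, for JUNB at 0.0850, 0.151 and 0.0858. KLF6 and PLK2 followed CCN1 for JUN. SERPINE2 came first for KLF4 (0.0340, 0.0399 and 0.0779), ESM1 for IER2 (0.0320, 0.0287 and 0.0653) and PLIN3 for FOSB, for which no value passed 0.0312. All of these are weak correlations of sparse counts, given as a description.

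Other immediate early regulators did not share one tissue order with the 9 genes. Of 30 found, 15 reached 50 CPM in adipose tissue or marrow, and 5 of them were called lower in adipose tissue: IER3 at 234 CPM against 676 CPM, PLK2 at 151 CPM against 326 CPM, PHLDA1 at 26.1 CPM against 119 CPM, SGK1 at 39.7 CPM against 109 CPM, and NFKBIA at 16.8 CPM against 52.7 CPM. Of all genes tested in this pair, 4.35% were lower in adipose tissue and 2.55% higher. NFKBIA was not called in the remaining cells of this pair. Between adipose tissue and blood, 2 of 14 were called, NFKBIA (16.8 against 95.7 CPM) and PHLDA1 (26.1 against 53.1 CPM), both lower in adipose tissue. There 3.83% of all genes tested were lower in adipose tissue. Between marrow and blood, IER3 (676 against 267 CPM), SGK1 (109 against 30.1 CPM), PLK2 (326 against 137 CPM) and PHLDA1 (119 against 53.1 CPM) were called higher in marrow and ID3 (199 against 431 CPM) lower. These were calls among 15 at 50 CPM, where 3.86% of all genes tested were higher in marrow and 3.9% lower. In the remaining cells, where 7.34% of genes were apart in either direction, NFKBIA was called lower in marrow as well (23.6 against 71.8 CPM). Where DUSP1, EGR1 and KLF4 were lower in marrow than in blood, then, IER3, SGK1, PLK2 and PHLDA1 were higher. ID3 and, in the remaining cells, NFKBIA were lower. NR4A1, an orphan nuclear receptor induced by the same signals and picked out after its values were seen, had 7.14 CPM in adipose, 0.982 CPM in marrow and 34.8 CPM in blood cells, under 50 CPM throughout.

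JUND was the highest of 10 other AP-1 genes, with 67.6 CPM in adipose, 109 CPM in marrow and 85.4 CPM in blood cells, and 0 of the 2 that reached 50 CPM were called in any pair; MAFG (51.1, 65.8 and 53.4 CPM) was the other. Of 18 MAP kinase feedback genes, at most 3 reached 50 CPM in any pair. DUSP14, ERRFI1 and PHLDA1 were the highest, and PHLDA1 was called in each pair, as above. Of 18 serum response inputs, 5 reached 50 CPM in marrow or blood, and 1 was called in any pair. This was PDGFRA, a receptor for platelet-derived growth factor, at 44.2 CPM in marrow against 126 CPM in blood (2.85-fold lower). Among other KLF genes, KLF6 (230, 241 and 206 CPM) and KLF10 (93.4, 78.2 and 116 CPM) were above KLF4 in all 3 libraries, and 0 of the 2 were called in any pair. None of the 13 MYC relatives, partners, antagonists and regulators found reached 50 CPM, with MGA at 31.3 to 33.9 CPM the highest. Of 19 genes known to be induced by MYC, 12 reached 50 CPM and 0 were called in any pair (in the remaining cells PA2G4 was, at 555 CPM in marrow against 268 CPM in blood); NPM1 had 1321 CPM in adipose, 959 CPM in marrow and 782 CPM in blood cells. The pluripotency factors found beside KLF4 and MYC, which were NANOG, LIN28A, LIN28B, SALL4 and ZFP42, had at most 0.0224 CPM in any library. Of 14 heat shock genes, 10 reached 50 CPM in marrow or blood. Called in any pair was 1, HSPA1A at 22.8 CPM in marrow against 59.3 CPM in blood (2.60-fold lower). Of all genes tested, 7.76% were apart between marrow and blood, 3.9% lower in marrow. The shares apart were 6.9% between adipose tissue and marrow and 5.03% between adipose tissue and blood.

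In the RefSeq annotation (ARS-UCD2.0, used for gene order only), JUNB and IER2 lie on the same chromosome with 19 protein-coding genes between them. Their co-detection ratio was 1.07 in adipose, 1.01 in marrow and 0.991 in blood cells, beside a median over all pairs of 1.07, 1.08 and 1.08 in the same order.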

How the data were processed

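The authors deposited unfiltered UMI counts per gene and barcode, 1 matrix per tissue, made with Cell Ranger 6.1.1 per the submitters' processing notes (the file headers name version 4) on build ARS-UCD1.2 per the same notes; the matrices hold no coordinates. Whether counting used strand was not stated there. A barcode was kept as a cell if its UMI total reached 1/10 of the 99th percentile among the 3000 largest; 0 had under 500 genes or over 20% mitochondrial UMIs. Scrublet (expected rate 6%) called 0 cells and so failed as a caller; doublets remain in the data. Clusters were made within each library by scanpy 1.11.5 (10000 UMIs per cell, 2000 variable genes, 30 components, 15 neighbours, Leiden resolution 0.5, seed 1). A cluster needed 3 markers of a class among its 50 leading genes, and was mixed where its stromal share was at least 0.5 of the library's median.

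UMIs were summed over cells and scaled to CPM. No test was run, since every tissue has a single library: ratios carry exact conditional binomial intervals, levels exact Poisson intervals and shares exact Clopper-Pearson intervals, all at 95%. Cells were thinned to 3000 UMIs (alternative 6000) for shares, co-detection and spread. On simulated counts for 21861 genes, 200 of 200 genes set at 3-fold and 0 of 200 at 1.5-fold were called in each pair. The simulated counts held counting error only, which is small for the abundant genes used. This checks that the rule runs as set and cannot show how often it would err between cultures or libraries. The genes and lists were chosen with earlier results of these data known. All 9 genes are named; from the lists, those called in a pair and, of the 3 highest, the ones that give the level of a list; the genes most alike are from the first 3 by correlation. IER5, RHOB, MCL1, PVT1, NCL, POU5F1 and SOX2 were not matched by symbol and are not analysed here. Alternatives were TMM scaling (edgeR 4.0.16), other cell thresholds, no filter, mean CPM over cells, and other cell sets.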

Additional observations from a re-analysis of the deposited data

Results flagged for a closer look

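Several genes ran in opposite directions in different libraries under the same contrast within a library. Each rests on 1 library per tissue, so none of these differences was tested.

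Between cells of the macrophage-marker cluster and the remaining cells, JUNB had a ratio of 0.442 in marrow and 1.23 in blood, EGR1 0.261 and 1.60, and IER2 0.424 and 2.08 in the same order. Taken by at least 1% macrophage-marker UMIs in place of the cluster, JUNB had 0.455 and 1.53, EGR1 0.297 and 2.88, and IER2 0.432 and 4.16. The macrophage markers summed to 16141 CPM in the marrow cells and 13459 CPM in the blood cells by that rule, and neutrophil-list markers to 27436 CPM and 6298 CPM; their part in these differences was not tested.

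Between S-phase and non-cycling clusters, JUNB had a ratio of 0.957 in adipose tissue, 1.12 in marrow and 0.888 in blood, and MYC 1.13 in adipose tissue and 0.858 in marrow. Between mitotic and non-cycling clusters, FOS had 0.636 in adipose tissue and 1.201 in blood, and KLF4 0.681 in marrow and 1.12 in blood.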

How the results depend on the processing

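No paired analysis was possible because each tissue has 1 library. Without the 50 CPM filter, 2 of the 9 genes were 2-fold apart between adipose tissue and marrow in place of 1, 4 between adipose tissue and blood in place of 2, and 5 between marrow and blood in place of 3, and 4731, 4185 and 4404 genes in all in place of 219, 159 and 243. The EGR1 call between adipose tissue and marrow was lost (0 genes called) with TMM scaling, in the remaining cells and at a threshold of 7500 UMIs. It was kept in remaining non-cycling cells, at 2.21-fold. Between adipose tissue and blood, 1 gene was called at a threshold of 1000 UMIs (DUSP1) and 1 in remaining non-cycling cells (KLF4). Taking cells with at least 1% macrophage-marker UMIs, an alternative added after the data were seen, changed the blood cells' count over the remaining cells to 6 in place of 3. Of 27 log2 ratios, 1 changed sign in the remaining cells (JUN, adipose over blood) and 3 in remaining non-cycling cells (FOS and KLF4, adipose over marrow, and JUN, adipose over blood), none of them called. The median co-detection ratio stayed between 1.03 and 1.09 under every alternative run. FOSB, with 17 UMIs in adipose cells, is limited by depth.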
